A study of Mus musculus with 26 samples.

Results

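Chemokines and their receptors were followed through 26 RNA-seq libraries of mouse aorta. The members were the protein-coding genes whose symbols are made of Ccl, Cxcl, Cx3cl, Xcl, Ccr, Cxcr, Cx3cr, Xcr or Ackr, a number and at most 1 letter. This rule found 59 genes among the 54532 counted. They comprised 23 CC ligands, 12 CXC ligands, 2 other ligands (Cx3cl1 and Xcl1), 10 CC receptors, 8 CXC or other receptors and 4 atypical receptors. Of these, 51 had at least 10 counts summed over the 26 libraries and were kept for tests. Just inside that limit were Ccl21b and Ccr8, with 10 counts each. The 8 members under it were Ccl1, Ccl19, Ccl20, Ccl21a, Ccl26, Ccl27b, Cxcl15 and Cxcr1, of which Ccl19 and Ccl26 came nearest with 8 counts each. Ccl21a and Ccl21b, and likewise Ccl27a and Ccl27b, are near-identical copies, so the split of reads between them is uncertain.

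Chemokines are small secreted proteins that guide the movement of leukocytes along gradients held on the surfaces of cells and matrix. They act on receptors coupled to G proteins, whereas the atypical receptors bind chemokines without that coupling and remove or transport them. In the wall of the aorta, smooth muscle cells, fibroblasts, endothelial cells and macrophages are known sources, and the Ccl2 to Ccr2 route is known for bringing monocytes from the blood.

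All libraries came from male mice. The untreated groups held 4 libraries each: ascending aorta and descending aorta of mice heterozygous for the C1041G substitution in fibrillin-1 (Fbn1 C1041G/+, a model of Marfan syndrome), called mutant here, and the same 2 regions of wild-type littermates. The antisense groups held 5 libraries each, all of ascending aorta of C1041G/+ mice, given either AGT-ASO, an antisense oligonucleotide against the transcript of angiotensinogen, or a control ASO. The mutation is therefore shared by both antisense groups, and no wild-type mice were given an oligonucleotide. The labels used here state no age, dose or schedule. The design asks how the mutant aorta differs from wild type in each region, and how lowering angiotensinogen changes the mutant ascending aorta. Libraries 1, 3, 5 and 7 were wild type and 2, 4, 6 and 8 mutant, with the same numbers in both regions; a number was taken as 1 mouse. The labels do not say that the libraries of a group came from separate animals, and p-values measure only the spread between these libraries.

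The sequences just before the starts of 3 members are shown. Ccl12 and Ccl8 are neighbours on chromosome 11 that received different calls, and Cxcl12 was the member with the most counts. Each run is the 250 bases before the start in RefSeq (GRCm38.p6), on the plus strand, at chr11:82101595-82101844 for Ccl12, chr11:82114935-82115184 for Ccl8 and chr6:117168285-117168534 for Cxcl12. Capitals mark matches, on either strand, to 5 motifs. The TATA box was searched as TATAAA, and the GC box as GGGCGG. The AP-1 motif was TGANTCA. The NF-kB motif was GGG and TTTCC with any 2 bases between, and the ISRE core was a pair of GAAA with any 2 bases between.
Ccl12: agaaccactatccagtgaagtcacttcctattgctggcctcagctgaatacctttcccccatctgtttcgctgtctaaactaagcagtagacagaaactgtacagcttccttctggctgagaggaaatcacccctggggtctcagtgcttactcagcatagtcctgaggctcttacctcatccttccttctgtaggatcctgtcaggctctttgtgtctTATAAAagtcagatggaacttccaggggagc
Ccl8: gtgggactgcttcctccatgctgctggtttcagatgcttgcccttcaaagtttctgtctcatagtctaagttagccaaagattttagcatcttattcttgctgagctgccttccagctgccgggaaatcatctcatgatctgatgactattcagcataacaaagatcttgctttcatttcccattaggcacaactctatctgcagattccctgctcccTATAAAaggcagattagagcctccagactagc
Cxcl12: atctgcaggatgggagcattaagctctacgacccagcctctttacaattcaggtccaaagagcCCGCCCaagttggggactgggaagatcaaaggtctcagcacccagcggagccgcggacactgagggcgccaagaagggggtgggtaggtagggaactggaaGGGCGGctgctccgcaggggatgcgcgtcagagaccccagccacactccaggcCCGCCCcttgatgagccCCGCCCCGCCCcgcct
Ccl12 has TATAAA at positions -31 to -26 and Ccl8 at -32 to -27, counted from the start, and neither holds any of the other 4 motifs. Cxcl12 has no TATAAA but 5 matches to GGGCGG, 1 on the plus strand and 4 on the minus strand, where it reads CCGCCC; the last 2, at -16 to -11 and -11 to -6, overlap by a base. RefSeq windows were matched by symbol for 38 of the 51 kept members, in 42 windows. TATAAA was in 28.6% of the members' windows and in 12.4% of all 32851 windows, and GGGCGG in 16.7% against 32.7%. The AP-1 motif was in 11.9% against 6.75%, the NF-kB motif in 11.9% against 1.41% and the ISRE core in 4.76% against 2.98%. These matches are letters in a window and were not tested as binding sites.

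The libraries held 17171652 to 28554356 counts, and 39 to 51 of all 59 members, kept or not, had a count in a given library. Smooth muscle markers were at 15870 to 29240 CPM (counts scaled to a common library size) in sum over the 26 libraries, with none of the 6 markers at 0. Fbn1 was at 225.5 to 506.7 CPM across the libraries, which does not check the substitution. Agt was at most 1.493 CPM in any library, and its means were 0.484 ± 0.193 CPM (SD, n = 5) in control ASO libraries and 0.398 ± 0.598 in AGT-ASO libraries, too low to check the oligonucleotide; the liver, the main source of angiotensinogen, is not among these samples. Mutant ascending library 2 stood apart. Its 8 T cell markers summed to 72.8 CPM, against at most 12.5 in the other 3 mutant ascending libraries. Its 6 thymus markers summed to 76.4 CPM against at most 9.16, with Foxn1 and Psmb11, which mark thymic epithelium, at 0. Wild-type ascending library 3 was the next highest of the ascending libraries, at 27.4 and 28.6 CPM. In bulk tissue, fewer cells of a type and less RNA per cell cannot be told apart.

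A few genes made up most of the chemokine signal. Cxcl12, the ligand that retains and recruits Cxcr4-bearing cells, gave 41.3% of all member counts, and Ackr3, the atypical receptor that takes up Cxcl12, gave 20.2%. With Ccl6, Ccl9 and Cx3cl1 they reached 80.3%. Levels between genes are compared per length, as CPM per kilobase of merged exon with 1 scaling over the 26 libraries. The merged length joins the exons of all annotated transcripts of a gene, 8176 bases for Cxcl12 and 3348 for Ackr3. The order of genes therefore depends on that length, and Cxcl12 had more counts than Ackr3. On that scale Ackr3 stood first over the 6 groups (mean of the group means 37.0), then Cxcl12 (29.8), Ccl6 (24.8), Ccl9 (12.5), Ccl11 (9.69), Cx3cl1 (8.34) and Cxcl16 (6.99). The order changed between groups: in mutant descending aorta Ccl6 (43.3 ± 13.6, SD, n = 4) was level with Ackr3 (40.1 ± 1.87) within their spread, and in control ASO libraries Cxcl12 (34.8 ± 2.25, n = 5) stood above Ackr3 (27.6 ± 2.00), with no overlap between their libraries.

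Among CC ligands, Ccl6 and Ccl9, mouse chemokines made by macrophages and other myeloid cells, led, followed by the eosinophil attractant Ccl11. Among CXC ligands, Cxcl12 led Cxcl16, a membrane-bound ligand of Cxcr6, and Cxcl1, which draws neutrophils and had a level of 1.29. Receptors that signal were lower. Cxcr4 was highest at 2.25, then Cx3cr1, the fractalkine receptor of monocytes and macrophages, at 1.51, and then Ccr2 at 1.40 and Ccr1 at 1.30, receptors of monocytes and macrophages. The atypical receptors Ackr2 (1.55) and Ackr4 (1.24) stood near Ccr2, whereas Ackr3 was more than an order of magnitude above them. At the bottom were Ccr4, Ccr8 and Cxcl3, each under 0.02.

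**Figure D1:**
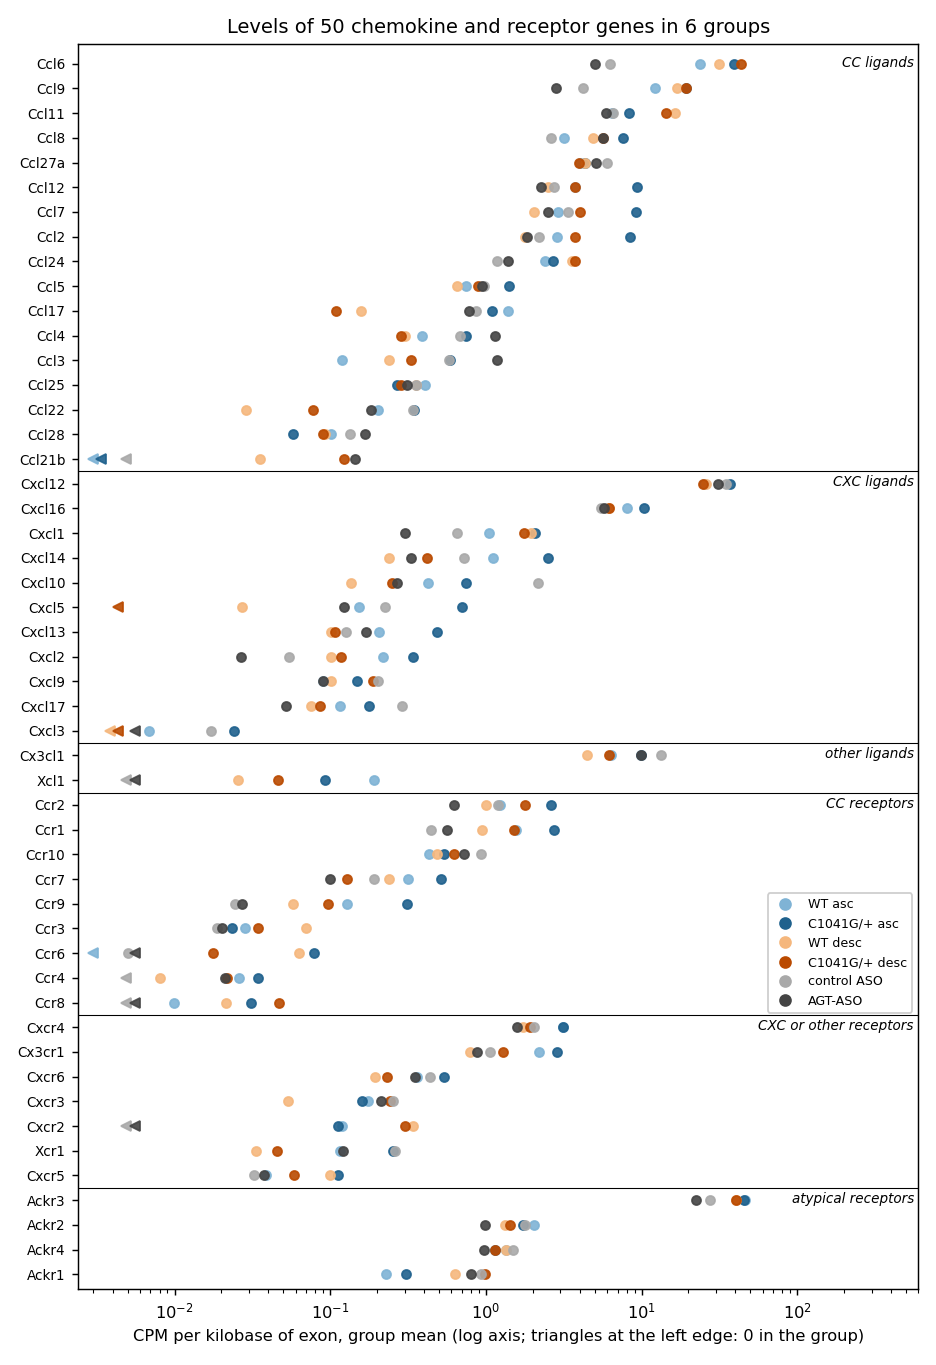
Group mean of 50 of the 51 kept members, as CPM per kilobase of merged exon on a log axis, arranged by role, with 1 marker per group and triangles for groups in which every library was at 0. Ackr3, Cxcl12, Ccl6 and Ccl9 lie at the top in the untreated groups, and the receptors that signal lie below 5.

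In the ascending aorta, 1 of the 51 members rose in mutant mice and none fell. Ccl12, a ligand of Ccr2 and a close relative of Ccl2, was at 1.76, 2.73, 2.04 and 1.68 CPM in wild-type libraries 1, 3, 5 and 7. In mutant libraries 2, 4, 6 and 8 it was at 7.64, 5.27, 3.93 and 3.60 CPM. Every mutant library lay above every wild-type library. The means were 2.05 ± 0.48 and 5.11 ± 1.83 CPM (SD, n = 4), a log2 fold change of 1.31 ± 0.33 (SE, edgeR quasi-likelihood test, adjusted p = 0.0435). Without mutant library 2 the change was 1.05 and the adjusted p 0.174, and the call was also lost without mutant library 4 (0.0897) or wild-type library 1 (0.0956), 5 (0.102) or 7 (0.117). DESeq2 also called Ccl7, Ccl8 and Cxcl12, where it called 4.98% of genes. The edgeR call, 1.96% of the members, stands beside 2.18% of all 15662 genes tested, so the share called was near the background.

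The 50 other members were not called, and 12 of them had an unadjusted p under 0.05. Counts at that cut-off, here and below, are given without the share of all genes and are not read as a result. The members leaned one way: 39 of the 51 log2 fold changes were above 0 (76.5%, against 48.0% of all genes). Their median was 0.64, against -0.01 over all genes. Without mutant library 2 the median was 0.23. That library was the highest of the 16 untreated libraries for 25 of the 51 members (49.0%), against 12% of all genes tested, and the highest of the 4 mutant ascending libraries for 34 (66.7%, against 27.5%). By role the medians were 0.73 for 17 CC ligands, 0.75 for 10 CC receptors, 0.78 for 11 CXC ligands, all 11 above 0, 0.37 for 7 CXC or other receptors, and -0.13 for the 4 atypical receptors. Besides Ccl12, 2 members had mutant libraries that did not overlap the wild-type ones, Cxcl12 and Cx3cl1; non-overlap was found for 9.49% of all genes.

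Cxcl12 was at 180, 200, 257 and 210 CPM in wild-type libraries 1, 3, 5 and 7 and at 310, 258, 340 and 314 in mutant libraries 2, 4, 6 and 8. The lowest mutant library lay just above the highest wild-type library. The means of 212 ± 32.7 and 305 ± 34.3 CPM differed by 0.53 ± 0.17 on the log2 scale (adjusted p = 0.115), and the difference was 0.52 without mutant library 2. Cx3cl1, the membrane-bound ligand of Cx3cr1 made by endothelial and smooth muscle cells, was at 15.7, 17.3, 35.0 and 34.5 CPM in wild-type and 38.6, 37.4, 45.2 and 36.7 CPM in mutant libraries, in the same order. Wild-type libraries 1 and 3 lay low and 5 and 7 close to the mutant ones; the log2 fold change was 0.62 ± 0.24 (adjusted p = 0.213).

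Ccl12 belongs to a run of 5 genes, Ccl2, Ccl7, Ccl11, Ccl12 and Ccl8, within 81.2 kb of chromosome 11 (82035571 to 82116799, GRCm38). Ccl2 and Ccl7 are the other ligands of Ccr2. Ccl2 was at 2.40, 4.81, 1.99 and 4.21 CPM in wild-type libraries and at 23.4, 4.57, 7.52 and 3.70 in mutant libraries 2, 4, 6 and 8. Ccl7 was at 2.40, 1.76, 1.83 and 3.54 CPM in wild-type and at 16, 4.57, 6.16 and 3.35 in mutant libraries. For both, mutant library 2 was far above the rest and the remaining mutant libraries reached down into the wild-type range. The log2 fold changes were 1.55 ± 0.54 for Ccl2 (adjusted p = 0.166) and 1.66 ± 0.49 for Ccl7 (adjusted p = 0.0945), and that of Ccl7 was 0.97 without mutant library 2.

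Ccl8, which acts on Ccr8 in mice, was at 1.97, 1.94, 1.27 and 1.44 CPM in wild-type and 8.58, 1.63, 3.87 and 1.75 CPM in mutant libraries, so mutant libraries 4 and 8 lay inside the wild-type range. Its log2 fold change of 1.26 (adjusted p = 0.116) was 0.54 without mutant library 2. Ccl11, in the middle of the run, averaged 7.19 ± 2.20 CPM over wild-type and 9.16 ± 1.55 CPM over mutant libraries (log2 fold change 0.35, adjusted p = 0.472). Ccr2, the receptor of Ccl2, Ccl7 and Ccl12, was at 9.97, 10.1, 8.15 and 5.84 CPM in wild-type and 31.6, 18.1, 12.7 and 8.95 CPM in mutant libraries. Here mutant library 8 fell within the wild-type range, and the log2 fold change of 1.07 ± 0.46 did not pass (adjusted p = 0.265).

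**Figure D2:**
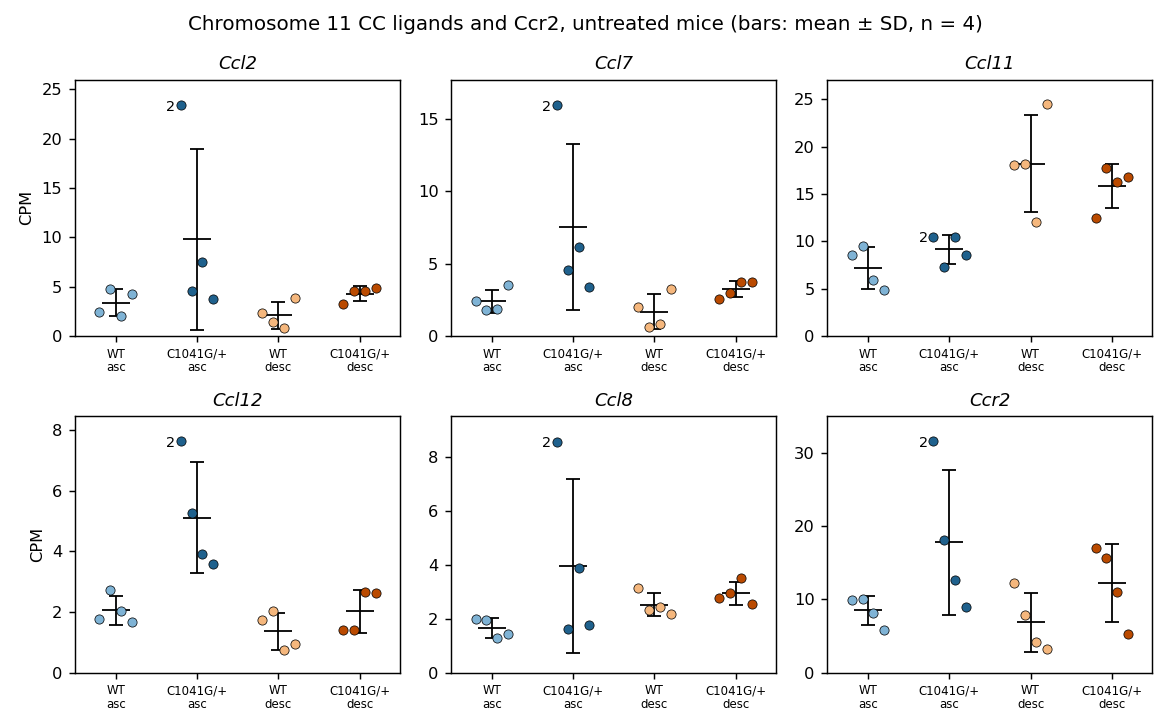
CPM in each of the 16 untreated libraries, by group, for the 5 genes of the chromosome 11 run and for Ccr2. Bars show the mean and SD, and mutant ascending library 2 is labelled. For Ccl2, Ccl7, Ccl8, Ccl12 and Ccr2 that library is the highest of all. All 4 mutant ascending libraries of Ccl12 lie between 3.60 and 7.64, above the wild-type ascending libraries.

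Of 12 macrophage markers, 0 passed the test in the ascending comparison (median log2 fold change 0.29), with sums of 581 to 677 CPM in wild-type and 673 to 870 CPM in mutant libraries, highest in mutant library 2. The 8 T cell markers, none called, had a median of 0.93. Of 6 smooth muscle markers Tagln rose (median 0.22), and of 6 fibroblast markers Dpt fell (median -0.4). Their part in the chemokine values was not tested. Ccl3, a ligand of Ccr1, had the largest log2 fold change among CC ligands, 2.33 (adjusted p = 0.12), at 17 or fewer counts in any of these 8 libraries. Ccr6 had 0 counts in the 4 wild-type libraries and 16, 0, 1 and 0 in the mutant ones, at least 5.55-fold higher, and rested on library 2.

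In the descending aorta no member passed the test between mutant and wild-type mice (edgeR, 1 with an unadjusted p under 0.05; DESeq2 and limma-voom also called 0), where 1.21% of all genes were called by edgeR and 2.64% by DESeq2. The median of the 51 log2 fold changes was 0.23 (0.14 to 0.41 with 1 library left out, lowest without mutant library 2 and highest without wild-type library 7). Above 0 were 33 of them (64.7%, against 49.8% of all genes). No member had groups that did not overlap, as 7.29% of all genes had. The smallest p belonged to Cxcr3, the receptor of Cxcl9 and Cxcl10 on activated T cells. It had 6, 0, 0 and 1 counts in wild-type libraries 1, 3, 5 and 7 and 8, 3, 12 and 9 in mutant libraries 2, 4, 6 and 8. Wild-type library 1 alone reached the mutant range, and the log2 fold change was 2.10 ± 0.75 (adjusted p = 0.251, and 0.0274 without that library). Ccl12 was at 1.37 ± 0.61 and 2.03 ± 0.72 CPM (0.56, adjusted p = 0.626), and Cxcl12 at 216 ± 46.1 and 205 ± 48.3 CPM (-0.07, adjusted p = 0.935).

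**Figure D3:**
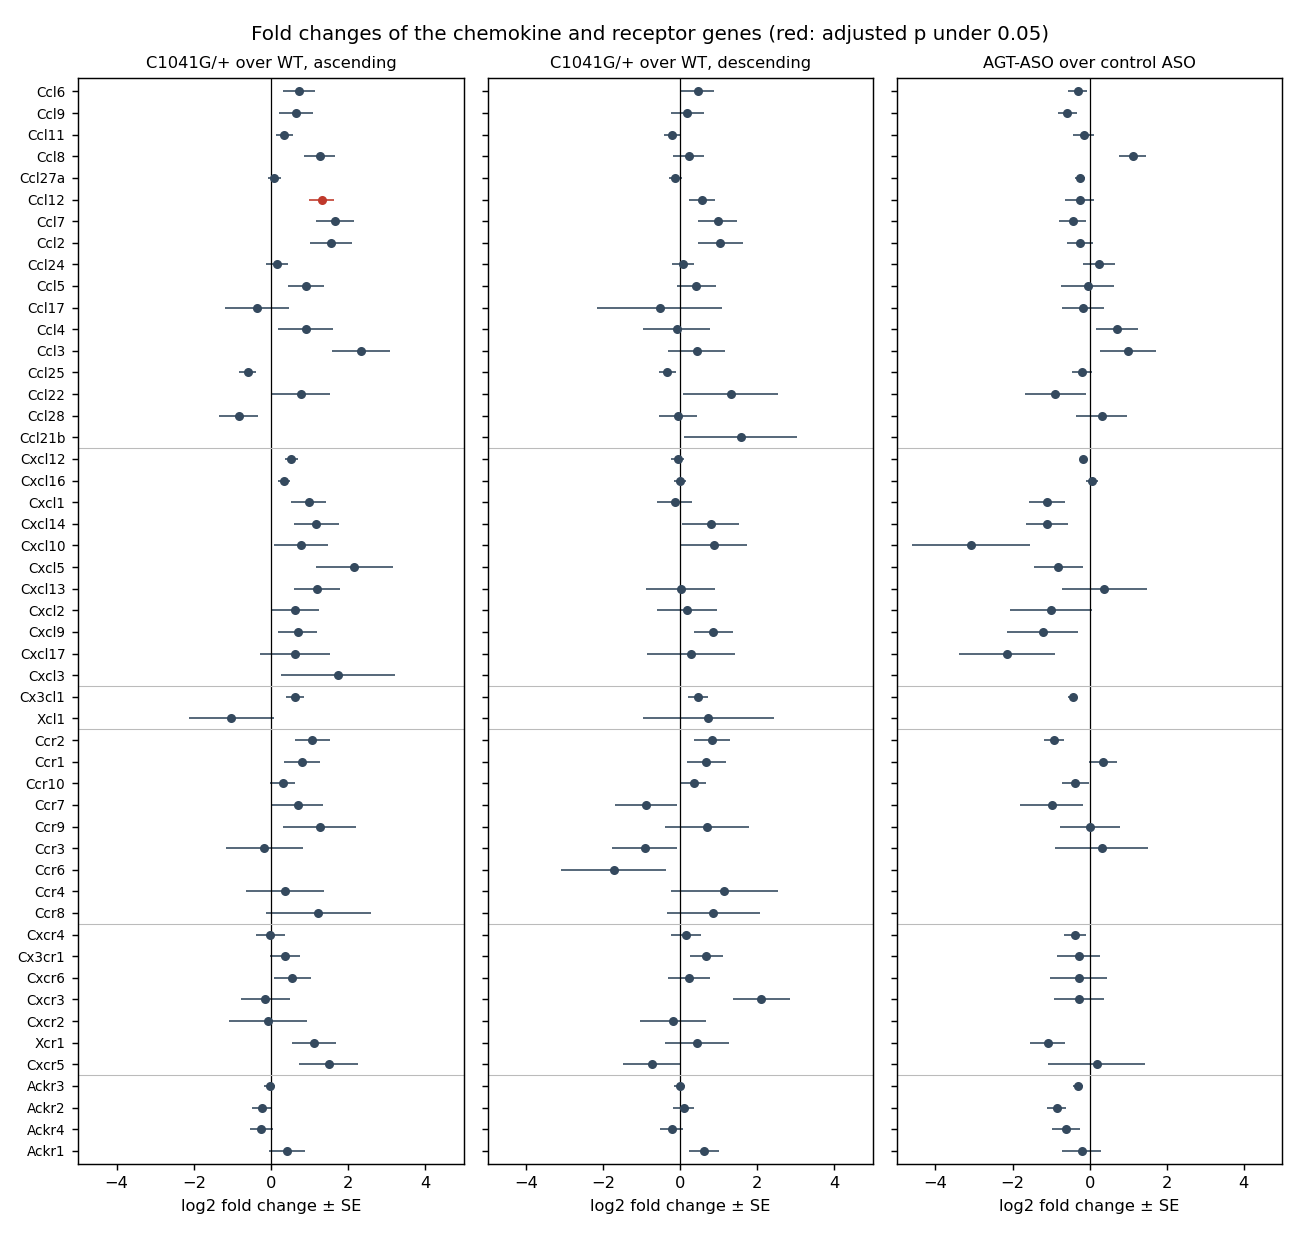
Log2 fold change with its standard error for the same 50 members in the ascending genotype, descending genotype and AGT-ASO comparisons; members with a group at 0 counts are not drawn, and red marks an adjusted p under 0.05. Ccl12 in the ascending aorta, at 1.31, is the 1 red point, most ascending genotype points lie to the right of 0 and most AGT-ASO points to the left.

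The regions differed more than the genotypes. In wild-type mice, ascending against descending aorta, 3 of 51 members were called (5.88%, against 11.1% of all genes): Cx3cr1 rose (7.81% of all genes did) and Ccl11 and Ackr1 fell (3.31%). In mutant mice 8 were called (15.7%, against 9.91%): Cxcl16, Ccl12, Cxcl14, Cxcl5, Xcr1 and Cxcl12 rose (6.4% of all genes did) and Ackr1 and Ccl11 fell (3.51%). DESeq2 called 13% and 12% of all genes in these comparisons. With the mouse number as a block, 11 members were called in wild-type mice (7 higher, 4 lower) where 15.5% of genes were, and 12 in mutant mice (10 higher, 2 lower) where 14.9% were. The block kept all 3 wild-type calls and added Cxcr4, Cx3cl1, Ccr9, Ccl22, Ccr1 and Ackr2 as higher and Cxcr2 and Cxcl1 as lower. It kept 7 of the 8 mutant calls, with Cxcl14 at an adjusted p of 0.0583, and added Cx3cl1, Ccr9, Cx3cr1, Ccr1 and Ccr7, all higher.

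Ccl11 was lower in the ascending aorta of all 8 mice. In wild-type mice 1, 3, 5 and 7 it was at 8.58, 9.48, 5.86 and 4.83 CPM in ascending and 18.1, 18.2, 12 and 24.5 CPM in descending aorta. In mutant mice 2, 4, 6 and 8 it was at 10.4, 7.28, 10.4 and 8.50 CPM in ascending and 12.5, 17.8, 16.3 and 16.8 CPM in descending aorta. No ascending library of either genotype reached the descending libraries of that genotype. The log2 fold changes were -1.34 ± 0.22 (adjusted p = 3.97e-04) in wild-type and -0.79 ± 0.22 (adjusted p = 0.0279) in mutant mice, and the difference between them, 0.55 ± 0.31, did not pass the interaction test (adjusted p = 0.991). The wild-type call held in 17 of 17 alternative analyses. The mutant call held in 13 of 18 and was lost without ascending library 4 or 8 or descending library 4, 6 or 8, at adjusted p from 0.064 to 0.088.

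Ackr1, the atypical receptor of venular endothelium and red cells, was also lower in the ascending aorta of all 8 mice, at few counts. Its ascending CPM was 0.213 to 0.407 in wild-type and 0.272 to 0.763 in mutant mice, and its descending CPM 0.466 to 1.36 and 0.849 to 2.08. The log2 fold changes were -1.46 ± 0.44 (adjusted p = 0.0371) and -1.67 ± 0.41 (adjusted p = 0.013); the first was lost in 9 of 17 alternatives, among them without any 1 ascending library or without descending library 1 or 7 (0.0537 to 0.133), and the second in 2 of 18, those without the mouse 2 descending library (adjusted p = 0.0549) or both libraries of mouse 2 (0.116). Ackr1 shares 361 of its 1405 exon bases with Cadm3, annotated on the same strand, which was also lower in ascending aorta, at 5.17 against 14.9 CPM in wild-type and 7.32 against 18.6 CPM in mutant mice. Reads in the shared part cannot be told apart. Of 6 endothelial markers, Pecam1, Tie1 and Vwf were called lower and Kdr higher in the ascending aorta of wild-type mice, and Vwf lower and Kdr higher in mutant mice. Their sums were 1225 to 1707 CPM in ascending and 2164 to 2954 CPM in descending libraries of wild-type mice, and 1139 to 1834 against 1865 to 2136 CPM in mutant mice. Their part in the Ackr1 values was not tested.

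The fractalkine pair was higher in the ascending aorta of every mouse. Cx3cr1 was at 10.8, 9.04, 14.9 and 5.98 CPM in wild-type ascending and 6.85, 2.95, 2.62 and 2.16 CPM in wild-type descending aorta, mice in order. Mouse 1's descending value lay above mouse 7's ascending value, so the groups overlapped, yet each mouse had the same direction. The log2 fold change was 1.48 ± 0.42 (adjusted p = 0.0306, and 0.0605 to 0.0987 without ascending library 1 or 5 or descending library 3, 5 or 7) in wild-type and 1.17 ± 0.40 (adjusted p = 0.0875, and 0.00718 with the block) in mutant mice. Cx3cl1 was at 25.6 ± 10.6 against 17.8 ± 4.84 CPM in wild-type and 39.5 ± 3.9 against 24.6 ± 4.16 CPM in mutant mice, with adjusted p = 0.248 and 0.105, and 0.016 and 9.48e-04 with the block. Cx3cr1 shares 78 of 4505 exon bases with Gm33858 on the opposite strand, and the strand setting of the counts is not known.

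Cxcl16 was at 41.9, 30.5, 26.2 and 27.9 CPM in mutant ascending and 18.5, 18.2, 20.5 and 19 CPM in mutant descending aorta of mice 2, 4, 6 and 8. The groups did not overlap, and the descending values had an SD of 1.03 CPM. The log2 fold change was 0.73 ± 0.16 (adjusted p = 0.00467), the call held in 18 of 18 alternatives, and without both libraries of mouse 2 it was 0.55 (adjusted p = 0.0477). In wild-type mice Cxcl16 was at 24.9 ± 4.35 and 19.1 ± 3.66 CPM (0.38, adjusted p = 0.157). Its exons share 552 of 3021 bases with Zmynd15 on the opposite strand, which was at 5.81 ± 1.60 CPM in mutant ascending and 3.70 ± 0.60 in mutant descending aorta.

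Ccl12 and Cxcl12 differed between the regions of mutant mice. Ccl12 was at 1.40, 1.42, 2.67 and 2.63 CPM in descending libraries 2, 4, 6 and 8, below each of the ascending values above (log2 fold change 1.33 ± 0.33, adjusted p = 0.0125). Cxcl12 was at 157, 171, 241 and 252 CPM in the same descending libraries and the lowest ascending one was at 258 (0.57 ± 0.17, adjusted p = 0.0365). Without the ascending library of mouse 2 the values were 1.07 (adjusted p = 0.0576) and 0.57 (0.0763). The Ccl12 call was lost in 3 of 18 alternatives, at adjusted p up to 0.155, and the Cxcl12 call in 8 of 18, at adjusted p up to 0.186. Both were lost without both libraries of mouse 2 and without the 2 ascending libraries highest in T cell markers. Cxcl12 was also lost without ascending library 6 or 8 or descending library 2 or 4 (adjusted p up to 0.109), and with a filter of 10 counts over the 26 libraries. In wild-type mice the regional log2 fold changes were 0.58 for Ccl12 (adjusted p = 0.387) and -0.02 for Cxcl12 (adjusted p = 0.965).

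Xcr1, the receptor of cross-presenting dendritic cells, had 14, 31, 23 and 21 counts in mutant ascending and 2, 7, 6 and 0 in mutant descending libraries, with no overlap (2.45 ± 0.65, adjusted p = 0.0204, and 0.053 to 0.0657 without ascending library 4 or descending library 2 or 8). In wild-type mice it had 8, 10, 9 and 16 against 7, 0, 2 and 2 counts, also higher in every mouse (1.77, adjusted p = 0.151). Cxcl14, a chemokine of epithelium and fibroblasts, was at 11.3, 0.924, 4.91 and 1.45 CPM in mutant ascending and 0.393, 1.30, 0.907 and 0.487 CPM in mutant descending libraries. Mouse 4 was lower in its ascending aorta and the other 3 higher (2.6 ± 0.64, adjusted p = 0.0144; 1.65 and 0.0685 without the ascending library of mouse 2, 0.0508 and 0.0544 without descending library 2 or 8). The call was lost in 9 of 18 alternatives, among them limma-voom (0.15), the random block (0.1) and the compared groups alone (0.0929), and the highest adjusted p was 0.175, without both libraries of mouse 2. In wild-type mice Cxcl14 was at 1.12 to 3.35 CPM against 0.349 to 0.508 with no overlap, just short of the threshold (2.21 ± 0.70, adjusted p = 0.0524). Cxcl13 had 14, 5, 18 and 8 counts in mutant ascending and 4, 4, 1 and 0 in mutant descending libraries, with no overlap in CPM. It was also just short of the threshold (edgeR adjusted p = 0.0527), and DESeq2, limma-voom and the random block called it.

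Cxcl5, a neutrophil attractant, had 107, 3, 7 and 4 counts in mutant ascending libraries and 0 in all 4 mutant descending libraries. Against a floor of 3 counts over the descending group, 0.04 CPM, it was at least 36.9-fold higher, and at least 6.04-fold without the ascending library of mouse 2 (adjusted p = 0.0181 and 0.0317, and 0.0596 without both libraries of mouse 2). The call was also lost with the compared groups alone, at an adjusted p of 0.197. Cxcr2, the receptor of Cxcl5 and Cxcl1, went the other way: it was lower in the ascending aorta of all 8 mice, at 0.372 ± 0.374 against 1.05 ± 0.80 CPM in wild-type and 0.349 ± 0.360 against 0.941 ± 1.04 CPM in mutant mice (adjusted p = 0.421 and 0.486, and 0.0346 with the block in wild-type mice). The 7 neutrophil markers summed to 2.5 to 18.2 CPM in wild-type ascending and 12.1 to 38.7 CPM in wild-type descending libraries, with 1 of 6 tested called (lower) and a median log2 fold change of -1.68. In mutant mice they summed to 2.75 to 26.5 CPM in ascending and 6.23 to 32.1 CPM in descending libraries, with none called, 3 of 6 above 0 and a median of -0.11; their part in the Cxcr2 values was not tested. The dendritic cell ligands Ccl17 and Ccl22, which act on Ccr4, had regional log2 fold changes of 3.09 and 2.71 in wild-type mice (adjusted p = 0.091 and 0.134) at 36 or fewer counts per library. Ccl17 was uneven, with 2, 36, 2 and 23 counts in ascending and 4, 0, 1 and 1 in descending libraries 1, 3, 5 and 7, and mouse 1 went the other way. Ccl22 had 6, 8, 16 and 9 against 1, 2, 2 and 0 counts, higher in every mouse.

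**Figure D4:**
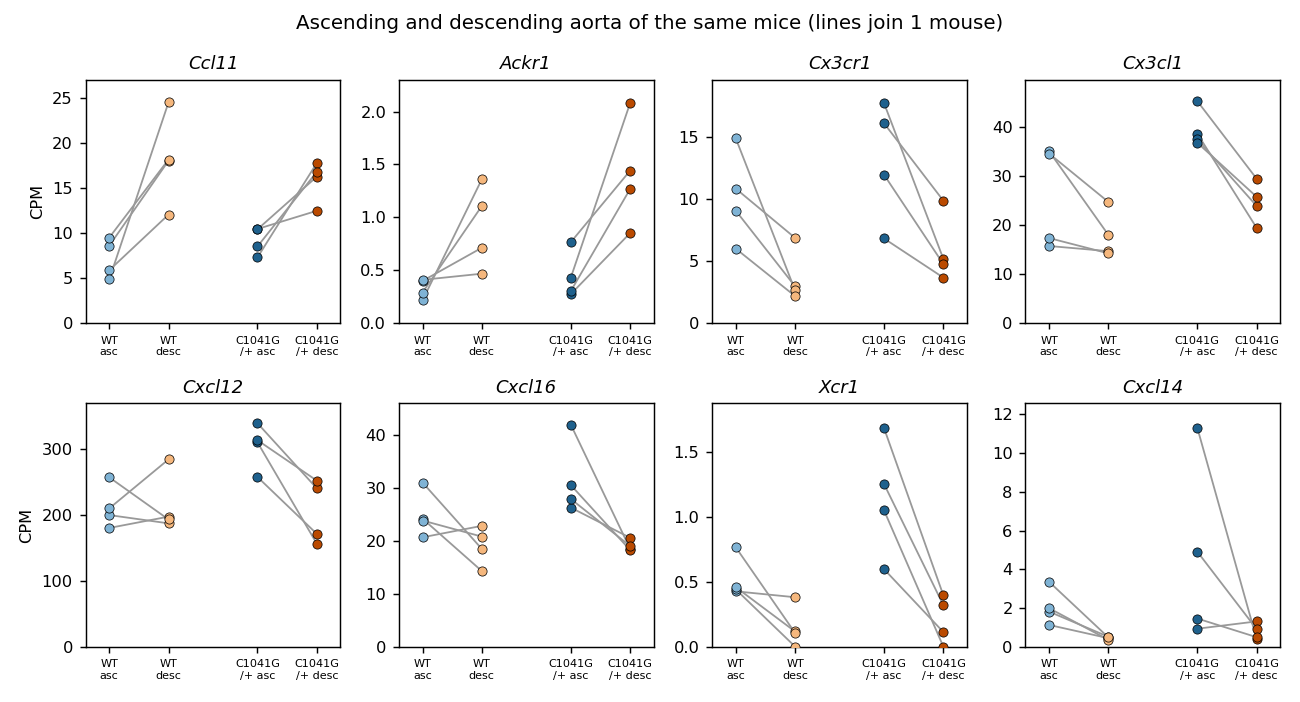
CPM of Ccl11, Ackr1, Cx3cr1, Cx3cl1, Cxcl12, Cxcl16, Xcr1 and Cxcl14 in ascending and descending aorta, with a line for each of the 8 mice, by genotype. Every line falls towards the ascending aorta for Ccl11 and Ackr1 and rises for Cx3cr1, Cx3cl1 and Xcr1, whereas for Cxcl12 the 4 mutant lines rise and the wild-type lines go both ways.

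Counted mouse by mouse, 7 members were higher in the ascending aorta of all 8 mice, Ccl12, Ccr9, Cx3cl1, Cx3cr1, Cxcl5, Cxcr4 and Xcr1, and 3 were lower, Ackr1, Ccl11 and Cxcr2. These are 13.7% and 5.88% of the members, against 9.89% and 6.49% of all genes. The median regional log2 fold change was 0.39 in wild-type mice (0.24 without ascending library 3) and 0.68 in mutant mice (0.19 without ascending library 2). Groups that did not overlap were found for 7 members in wild-type mice (14.5% of all genes) and 11 in mutant mice (14.4%). Tissue markers moved with region as well. All 6 mesothelial markers were called higher in ascending aorta in both genotypes, with sums of 265 to 524 CPM in ascending and 5.07 to 21.2 in descending libraries. Heart muscle markers were called for 5 of 6, with sums of 268 to 938 against 66.0 to 238 CPM, and lymphatic endothelial markers for 4 and 5 of 6. Macrophage markers were called for 0 of 12 in either genotype. Fibroblast markers were called higher for 4 of 6 in wild-type and 1 of 6 in mutant mice, and B cell markers lower for 3 of 5 and 0 of 5. The part of these tissues in the regional values was not tested.

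No member passed the test of the difference between the genotype effects of the regions (edgeR, 4 with an unadjusted p under 0.05; DESeq2, limma-voom and the block called 0), and 0.00638% of all genes did, or 0.243% with DESeq2 and 0.083% with the fixed block. Cxcl12 had the second smallest p of the members: its genotype change was larger in ascending than in descending aorta by 0.60 ± 0.24 on the log2 scale (adjusted p = 0.834). Ccl12, called by genotype in the ascending aorta alone, had a difference of 0.75 ± 0.48 (adjusted p = 0.997), so the regions were not shown to differ in it. The 4 members with the smallest p also included Ccr6, Cxcr3 and Cxcr5, each at 19 or fewer counts in any untreated library.

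AGT-ASO against control ASO gave no call among the 48 members tested (edgeR, 10 with an unadjusted p under 0.05; limma-voom called 0 and DESeq2 3, all lower: Cx3cl1, Ccr2 and Ackr2), where 0.0667% of all 14997 genes were called by edgeR and 2.01% by DESeq2. Values leaned downwards: 35 of 48 log2 fold changes were below 0, with a median of -0.29 against -0.01 over all genes. Above 0 were 27.1% of the members and 48.3% of all genes. The summed member CPM ran from 489 to 616 in control ASO libraries and from 409 to 495 in AGT-ASO libraries, overlapping slightly. A few genes weigh most in that sum, none of them called by edgeR. Cxcl12, Ackr3 and Cx3cl1 had means of 277, 90.1 and 51.1 CPM in control and 246, 72.8 and 37.5 CPM in AGT-ASO libraries. No single member had groups that did not overlap, against 2.39% of all genes.

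Cx3cl1 was at 42.4, 46.2, 65.9, 49.7 and 51.1 CPM in control ASO libraries 8, 12, 13, 16 and 17. With AGT-ASO it was at 33.5, 39.9, 44.6, 33.7 and 35.9 CPM in libraries 14, 15, 18, 19 and 20. AGT-ASO library 18 overlapped control library 8, and the other 4 lay below all controls. The means were 51.1 ± 8.95 and 37.5 ± 4.70 CPM (SD, n = 5), a log2 fold change of -0.44 ± 0.11 (adjusted p = 0.143; DESeq2 0.0319).

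Ccr2 was at 4.42, 5.45, 12.8, 6.03 and 10.4 CPM in control ASO libraries and at 4.55, 4.0, 4.23, 3.76 and 3.93 CPM with AGT-ASO, libraries in the same order. The AGT-ASO values were narrow (SD 0.305) and 4 of 5 lay below every control. The log2 fold change was -0.92 ± 0.26 (adjusted p = 0.175; DESeq2 0.0356). Ackr2, the atypical receptor that degrades inflammatory CC chemokines, was at 5.44 ± 1.69 and 2.99 ± 0.79 CPM (-0.85 ± 0.24, adjusted p = 0.183; DESeq2 0.0408). Without control library 8, edgeR called Cx3cl1 (adjusted p = 0.0371) and Ccr2 (0.0353).

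Ccl8 went the other way, at 1.75, 0.902, 1.42, 1.11 and 1.35 CPM in control and 4.51, 1.97, 2.82, 3.60 and 1.18 CPM in AGT-ASO libraries. Only AGT-ASO library 20 lay inside the control range, and the log2 fold change was 1.11 ± 0.35 (adjusted p = 0.217). Ccl12, the member called by genotype, was at 1.43 ± 0.45 and 1.18 ± 0.60 CPM (-0.26, adjusted p = 0.825), and Cxcl12 at 277 ± 18.2 and 246 ± 22.5 CPM (-0.17, adjusted p = 0.357). Heart muscle markers, 0 of 6 called, summed to 651 to 1357 CPM in control ASO and 300 to 643 CPM in AGT-ASO libraries without overlap. Endothelial markers summed to 239 to 335 and 136 to 355 CPM, and the mitochondrial share of counts was 5.52% to 11.1% and 3.76% to 7.0%. Their part in the chemokine values was not tested.

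**Figure D5:**
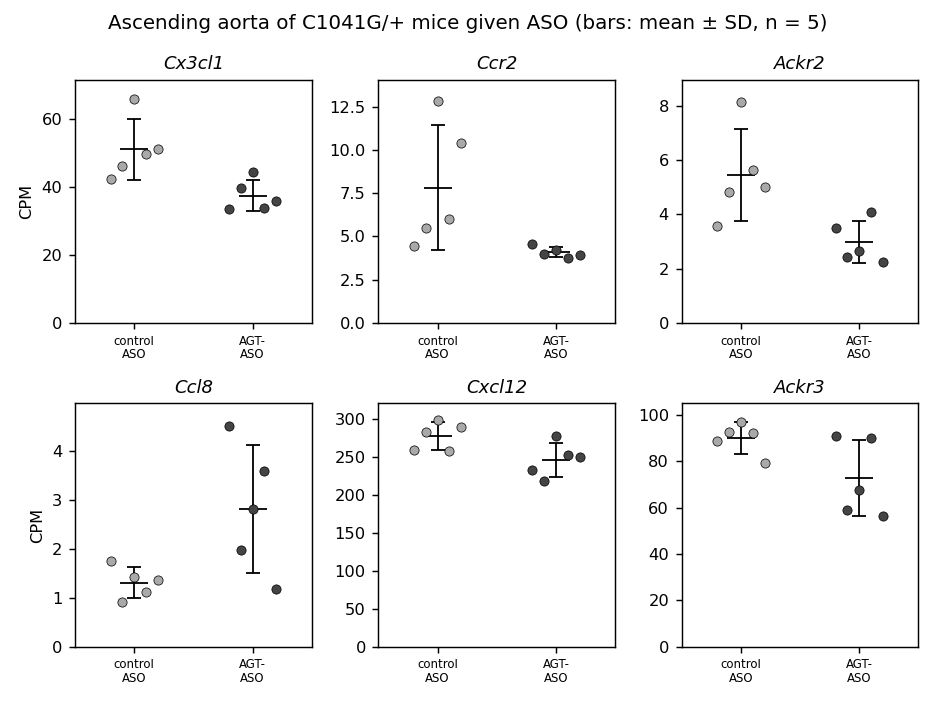
CPM of Cx3cl1, Ccr2, Ackr2, Ccl8, Cxcl12 and Ackr3 in the 5 control ASO and 5 AGT-ASO libraries, with the mean and SD of each group. The AGT-ASO libraries of Cx3cl1, Ccr2 and Ackr2 lie towards the low end and those of Ccl8 towards the high end, and the groups overlap for each gene.

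Ligands and their receptors differed widely in level. Per kilobase, Cxcl12 was at 24.7 to 36.8 over the 6 group means, Ackr3 at 22.5 to 45.9 and Cxcr4 at 1.57 to 3.13. The mean of Ackr3 lay above that of Cxcl12 in each untreated group, as in wild-type ascending aorta (45.9 against 25.3). It lay below that of Cxcl12 in both antisense groups (27.6 against 34.8 with control ASO, 22.5 against 31.1 with AGT-ASO). Cx3cl1 (4.45 to 13.3) stood above Cx3cr1 (0.792 to 2.87), and Cxcl16 (5.49 to 10.3) above Cxcr6 (0.194 to 0.539). The Ccr2 ligands Ccl2, Ccl7 and Ccl12 were between 1.79 and 9.37 and Ccr2 between 0.626 and 2.6. Of the ligands of Ccr1 (0.445 to 2.75), Ccl6 (5.05 to 43.3) and Ccl9 (2.84 to 19.4) were high, whereas Ccl3 and Ccl5, with the related Ccl4, were at 0.118 to 1.41.

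In the other sets the ligand lay above the receptor for some members and below it for others. Ccl11 (5.88 to 16.5) and Ccl24 (1.17 to 3.75) stood beside Ccr3 at no more than 0.0703, and Ccl8 (2.62 to 7.63) beside Ccr8 at no more than 0.0472. Ccl17 (0.108 to 1.38) and Ccl22 (0.0287 to 0.343) stood beside Ccr4 at no more than 0.0343. Ccl27a was at 3.95 to 6.01 with Ccl28 at 0.0573 to 0.167, beside Ccr10 at 0.433 to 0.930. Of the neutrophil attractants, Cxcl1 was at 0.301 to 2.06 and Cxcl2, Cxcl3 and Cxcl5 at no more than 0.702, beside Cxcr2 at 0 to 0.338. The remaining sets, Cxcl9 and Cxcl10 with Cxcr3, Cxcl13 with Cxcr5, Ccl25 with Ccr9 and Xcl1 with Xcr1, had no group mean above 0.746 in the untreated groups. In these, Cxcl10 reached 2.16 in control ASO libraries through library 16 alone, and Xcl1 was at 0 in both antisense groups. Ccr7 (0.0990 to 0.511) and Ackr4 (0.974 to 1.5) were counted; of their ligands, Ccl19 and Ccl21a were under the count minimum, Ccl21b just reached it, and Ccl25, which Ackr4 also binds, was at 0.267 to 0.404.

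Most genes of the pathway outside the family did not pass in any comparison. Of 30 genes that signal below chemokine receptors, 0 passed in either genotype comparison, the interaction or the AGT-ASO comparison, with medians of 0.14, 0.11, 0.06 and 0.03. By region 24 of the 30 did not pass in either genotype, and 5 were higher and 1 lower in each, beside the 11.1% and 9.91% of all genes called: the receptor kinase gene Grk3 and Ptk2b, a focal adhesion kinase of leukocytes, were higher and Elmo1, a Rac activator, was lower in both. Of 16 other genes of the chemokine system, Dpp4, whose protease trims and inactivates Cxcl12 and other chemokines, was called in 3 comparisons; by region 13 of the 16 did not pass in either genotype. In descending aorta its means were 6.07 ± 0.37 CPM for wild-type and 14 ± 3.02 CPM for mutant mice (log2 fold change 1.20 ± 0.16, adjusted p = 5.27e-04). In ascending aorta it was at 35.0 ± 5.58 and 45.2 ± 7.37 CPM, above the descending aorta by 2.53 ± 0.16 in wild-type and 1.70 ± 0.15 in mutant mice (adjusted p = 6.51e-09 and 4.07e-07). Rarres2, which encodes chemerin, rose in the ascending aorta of both genotypes (0.36 and 0.67), Cd74 in wild-type mice (1.01) and the chemerin receptor gene Cmklr1 in mutant mice (0.34). Of 19 inducers of chemokine genes, 18 did not pass by region in wild-type and 16 did not in mutant mice, beside the same shares of all genes. Nfkb2 was higher in ascending aorta in both genotypes (0.39 and 0.46), and Tlr2 (0.57) in mutant mice. Il6 was also called in mutant mice, at 4.27 ± 7.49 CPM in ascending and 0.168 ± 0.139 in descending libraries (log2 fold change 4.68, adjusted p = 0.0347). Its ascending SD was above its mean, so those libraries were uneven, and its values with a library left out are not given.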

How the data were processed

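RNA from mouse aorta (26 libraries) was measured by RNA-seq. The submitters' processing notes list fastp, STAR 2.6.1d and the build mm10. What counted the reads, with which strand setting and annotation, is not given in the sources used here. The authors deposited whole-number counts per Ensembl gene, not normalized, with 17171652 to 28554356 counts per library; no 2 libraries held identical values. Names, exons and positions came from GENCODE M21 (GRCm38), which names 99.77% of the 54532 identifiers. The symbol rule also matched Cxcl11, annotated as a polymorphic pseudogene, which is no member.

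Counts were tested with the edgeR 4.0.16 quasi-likelihood F test (R 4.3.3, TMM factors, robust dispersions, two-sided, Benjamini-Hochberg adjustment over all genes tested, threshold 0.05). The 16 untreated libraries were fitted together (15662 genes, 12 residual degrees of freedom, biological coefficient of variation 15.9%) and the 10 antisense libraries apart (14997 genes, 8 degrees of freedom, 17.1%). Tested genes were those passing filterByExpr plus the kept members; 34 of 51 and 32 of 48 members passed the filter themselves. The scripts were tested on simulated data. CPM uses each fit's TMM scaling; levels per kilobase use 1 scaling over 26 libraries. Floors of 3 counts over a group and 95% intervals use unscaled totals and cover counting error only. At these depths members under about 1 CPM rest on few counts.

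Members, gene lists and markers were chosen with earlier results of these data known. Members called in any comparison and the 3 uncalled members with the smallest p in each are named with their values. Most are given by library, and some, such as Ackr1 and Ackr2, as ranges or means. The 3 highest of each role and ligand and receptor pairs are named with group levels, and at most 4 genes of a list are named. Members whose libraries all lie in 1 direction are named from their counts. Other named members (Ccl2, Ccl3, Ccr1, Ccr7, Ccr9, Cxcl1, Cxcr2 and Cxcr4) follow from the pairs, the chromosome 11 run or the block. The values of 1 kept member, which counts and medians include, are not reported here. After removal of group means, the 8 pairs of ascending and descending libraries with 1 number had correlations of 0.159 to 0.303 over genes (other pairs, mean -0.033). Of the 8 ascending libraries, 6 correlated best with the descending library of their own number. The number was therefore taken as a mouse, which the labels do not state. The main fits did not carry it, and some alternative fits carried it as a replicate block. The alternatives were DESeq2 1.42.0, limma-voom (limma 3.58.1), other normalization and filters, the block, other sets of libraries and each library left out.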

Additional observations from a re-analysis of the deposited data

Results flagged for a closer look

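Of 115 combinations of a named member and a group tested for a library far from the others of its group, 8 stood out by the gap ratio; chance gives about 1 in 20. In mutant ascending library 2, Ccr6 was at 0.683 CPM with the next library at 0.0545, and Cxcl5 at 4.57 CPM with the next at 0.382. In wild-type descending library 1, Cx3cr1 was at 6.85 CPM with the next at 2.95, and Cxcr3 at 0.326 CPM with the next at 0.0527. Cxcl12 was at 284 CPM in wild-type descending library 7, and the next library was at 197. Xcr1 was at 0.766 CPM in wild-type ascending library 7, and the next was at 0.458. In mutant descending library 4, Ccl17 was at 0.226 CPM and the other 3 libraries were at 0. Cx3cr1 was at 10.1 CPM in AGT-ASO library 15, with the next at 3.03. The causes were not tested.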

How the results depend on the processing

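Every alternative kept the direction of each named call, and the Ccl11 call in wild-type mice and the Cxcl16 call in mutant mice held throughout. Counts of called members moved as follows; the cause was not tested. For genotype in the ascending aorta (1 higher), DESeq2 gave 4, limma-voom 2, leaving out 1 library at a time 0 to 2, and leaving out both libraries of mutant mouse 2, or the 2 ascending libraries highest in T cell markers (2 settings chosen after seeing the data), 0 each. For genotype in the descending aorta (0 higher), leaving out 1 library gave 0 to 1. For region in wild-type mice (1 higher, 2 lower), the higher count was 2 with DESeq2, 0 with a filter of 10 counts over the 26 libraries, 3 with a random replicate block, 7 with a fixed one, 3 with the compared groups alone, 0 to 4 with 1 library left out and 2 without the T cell-high libraries. The lower count was 1 with limma-voom, 4 with the fixed block, 1 to 2 with 1 library left out and 1 without the T cell-high libraries. For region in mutant mice (6 higher, 2 lower), the higher count was 10 with the fixed block, 3 to 7 with 1 library left out, 1 without mouse 2 and 3 without the T cell-high libraries; the lower count was 1 to 2 with 1 library left out and 1 without mouse 2. For AGT-ASO (0 lower), DESeq2 gave 3 and leaving out 1 library 0 to 2. The median interaction of 0.33 ran from -0.01 (without mutant ascending library 2) to 0.46 with 1 library left out, and was -0.02 without the T cell-high libraries. The replicate block changed no call in the genotype comparisons or the interaction. Over all genes, 342 calls by ascending genotype became 779 with DESeq2, 161 without mutant library 2, 206 without mutant library 4 and 160 and 110 in the added settings; 189 by descending genotype became 414 with DESeq2; 1552 by region in mutant mice became 2332 with the fixed block; 1 in the interaction became 38 with DESeq2 and 13 with the fixed block; and 10 with AGT-ASO became 289 with DESeq2, 64 with the filter of 10 counts, 63 with all 26 libraries in 1 fit, 0 with limma-voom and 0 to 180 with 1 library left out. Of the members, 17 of 51 in the untreated fit did not pass filterByExpr themselves and entered only as members, so depth limits them most.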

Other observations

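Some members differed in level between the control ASO and the untreated mutant ascending libraries. Per kilobase, Ccl6 was at 39.3 ± 16.8 (SD, n = 4) in untreated mutant ascending aorta and at 6.28 ± 1.5 (n = 5) with control ASO, Ccl9 at 19.3 ± 10.4 and 4.23 ± 1.30, and Ccr1 at 2.75 and 0.445. Of the 51 members, 11 had libraries that did not overlap between these groups, 9 higher in the untreated and 2 higher with control ASO (Ackr1 and Ccr10). That is 21.6% of the members, against 17.4% of all 24764 genes with at least 10 counts, so the share over both directions was near that of all genes. By direction, 17.6% of the members against 9.04% of all genes were higher in the untreated libraries, and 3.92% against 8.34% were lower. Treatment, cohort and sequencing run cannot be told apart here, and no test was made. The macrophage markers summed to 673 to 870 CPM in the untreated and 282 to 385 CPM in the control ASO libraries, each in the scaling of its own fit. Endothelial markers summed to 1139 to 1834 and 239 to 335 CPM, and heart muscle markers to 284 to 565 and 651 to 1357 CPM. Smooth muscle markers overlapped, at 19910 to 25920 and 16460 to 29240 CPM. The part of these tissues in the chemokine levels was not tested.

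Cxcr2, Ccr8 and Xcl1 had 0 counts in all 10 antisense libraries, which allows up to 0.0141 CPM over those libraries, and each was counted in the untreated ones. The neutrophil markers summed to at most 2.66 CPM in the antisense libraries, with Ly6g and Retnlg at 0. Cxcl10, an interferon-induced ligand of Cxcr3, had 604 counts (21.5 CPM) in control ASO library 16 and 31 or fewer in the other 9 antisense libraries. Cxcl9, another ligand of that receptor, had its highest antisense count there too, 53. Cxcl11 had 16 counts in 6 libraries, at most 5 in 1.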
